A study of Oryza sativa with 4 samples.

Results

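Small heat shock proteins (small HSPs) are a family of molecular chaperones that bind unfolding proteins and keep them from aggregating until other chaperones refold them. Plants have many of them, grouped by sequence and by the compartment in which they work, with cytosolic classes and forms sent to organelles such as the chloroplast, the mitochondrion and the endoplasmic reticulum. In most plant tissues their genes are weakly expressed at ordinary temperatures and are switched on strongly by heat stress transcription factors when the leaf itself is heated, so the level in unheated leaves is a basal level. The analysis covered 10 rice identifiers of the Rice Annotation Project, listed as class I cytosolic and organelle small HSP genes. The listing rule names identifiers and uses no measured value, although it was written with earlier results of these data known. All 10 were found among the 37858 genes of the expression table. Which identifier belongs to which class or compartment is given neither in the table nor in the reference used here, so the genes are called by their identifiers.

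The leaves came from rice plants (Oryza sativa, cultivar Nipponbare) grown without heat treatment from 2 kinds of seed. CS plants grew from control seeds that had matured at 25 °C, and HDS plants grew from seeds that had developed at 30 °C during grain filling. RNA of fully developed leaves in the vegetative stage was sequenced from 2 biological replicates per treatment, each from a single plant as the study defines a replicate, and the plants of both treatments were of the same cultivar and grew under the same natural conditions. Here the question is whether the leaves of HDS plants kept a higher basal level of small HSP transcripts. It bears on the basal level only, meaning the level without a heat treatment, since none was given to these plants. The study does not give the leaf temperature at sampling.

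The libraries held between 15444235 and 17298384 expected counts. At this depth, 0 counts in a library allow up to 3 counts, which is between 0.168 and 0.205 CPM (a gene's share of the counts of its library on a fixed scale, with library totals adjusted by edgeR's TMM factors), and this limit covers counting error only. Levels in CPM were compared between libraries and not between genes, because gene lengths were not used. In whole leaves, fewer cells of a type and less RNA per cell cannot be told apart. Of the genes listed from general knowledge as marks of tissue, 4 of photosynthesis had between 231 and 125851 expected counts per library, while 1 of roots (Os02g0662000) and 1 of panicles (Os02g0682200) had 0 in every library, and 2 listed for the endosperm (Os10g0400200 and Os01g0762500) had between 7 and 211. The photosynthesis genes moved in the same direction as the summed reads of the small HSP genes. All 4 were lower in both HDS libraries than in both CS libraries and met the study's criteria given below, with log2 fold changes between -1.51 and -0.46, although 0 of the 4 passed edgeR's quasi-likelihood test at an adjusted P under 0.05. Of all genes kept by edgeR's filter on low counts, 19.3% had both HDS libraries below both CS libraries. By the study's criteria, 3.7% of all genes tested were lower. The summed level of the 4 photosynthesis genes was 12940 and 6478 CPM in the CS libraries and 4713 and 5074 CPM in the HDS libraries. CS replicate 1, the highest library here, was also the highest in the small HSP sum. Without Os03g0266300 and Os02g0758000, however, the small HSP sum was highest in CS replicate 2, at 8.52 CPM against 7.16 CPM in CS replicate 1. The part of the photosynthesis genes in the small HSP values was not tested.

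No small HSP gene was found at a higher basal level in HDS plants. None of the 10 genes met the study's criteria in either direction, and summed over the genes the level was lower, not higher, in HDS leaves. The summed small HSP level was 48.0 and 42.5 CPM in CS replicates 1 and 2 and 34.9 and 35.9 CPM in HDS replicates 1 and 2. This gave 45.3 ± 3.87 CPM (SD, n = 2) for CS against 35.4 ± 0.693 CPM (SD, n = 2) for HDS, or 78.2% of the CS mean. Both HDS libraries lay below both CS libraries. The sum was carried by Os03g0266300 and Os02g0758000, which together gave between 80.0% and 86.1% of the small HSP reads of a library. Without these genes the sum was 7.16 and 8.52 CPM in the CS libraries against 6.36 and 5.01 CPM in the HDS libraries. Both HDS libraries were below both CS libraries here, but this order depended on Os01g0184100. That gene gave 2.22 and 5.02 CPM of this sum in CS plants against 3.46 and 1.27 CPM in HDS plants. With it taken out as well, HDS replicate 2 lay above CS replicate 2. A sum over chosen genes was not tested.

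The study called a gene changed where edgeR's exactTest gave an unadjusted P under 0.05 and the log2 fold change was 0.37 or more, up or down. By these criteria, 0 of the 9 small HSP genes with at least 1 count were higher and 0 were lower in HDS leaves. Of the 29698 genes tested in the same way, 4.18% were higher and 3.7% were lower. These shares come from a re-run with edgeR 4.0.16, which called fewer genes than the study reported from edgeR 3.26.3. The cause of that difference was not tested. The quasi-likelihood test of edgeR was run on the 22184 genes that filterByExpr, its filter on low counts, kept, with Benjamini-Hochberg adjustment. There, 0 of the 6 small HSP genes kept reached an adjusted P under 0.05, where 0.248% of all genes kept were higher and 0.451% were lower. At an unadjusted P under 0.05, the count of small HSP genes was also 0 by the exact test, by the quasi-likelihood test and by DESeq2. With at most 9 genes tested, a count of 0 is near what these shares of all genes would give. The median log2 fold change was -0.36 over the 6 genes kept, against 0.01 over all genes kept. Among these 6 genes, 3 had both HDS libraries below both CS libraries and 0 had both above, where 19.3% of all genes kept were below and 21.2% were above in this way.

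**Figure D1:**
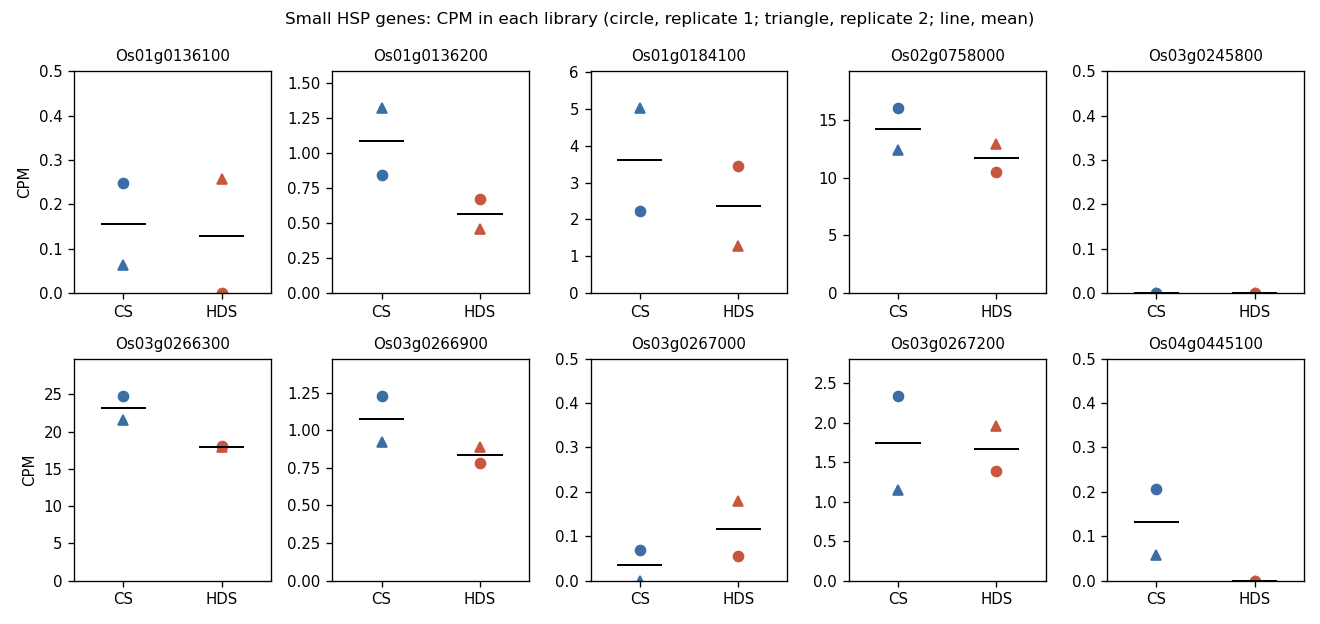
Level of each of the 10 small HSP genes in CPM (y axis, linear and starting at 0, with its own range in each panel) in CS and HDS plants, where points are libraries and lines are means of 2 replicates. Os03g0266300 and Os02g0758000 stand at 10.5 to 24.8 CPM, Os03g0245800 is at 0 in all 4 libraries, and no gene that filterByExpr kept has both HDS libraries above both CS libraries.

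Os03g0266300, on chromosome 3, was the small HSP gene with the most reads and the most precise value. Its counts were 363 and 375 in CS replicates 1 and 2 against 323 and 302 in HDS replicates 1 and 2. In CPM these were 24.8 and 21.6 against 18.1 and 17.9, so both HDS libraries lay below both CS libraries. The CS mean was 23.2 ± 2.28 CPM (SD, n = 2) and the HDS mean 17.99 ± 0.0801 CPM (SD, n = 2). The exact test of edgeR gave a log2 fold change of -0.367 (P = 0.102, adjusted P = 0.839). In this test neither the fold change nor the unadjusted P met the study's limits. The standard error of 0.10 came from log2 CPM between the replicates and not from this test. The 95% interval of the quasi-likelihood fit ran from a 0.593-fold to a 1.01-fold level in HDS plants, so an increase beyond this upper bound lay outside the interval. Without CS replicate 2 the gene met the study's criteria as lower, with a log2 fold change of -0.49 and an unadjusted P of 0.0230 in the exact test.

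Os02g0758000, on chromosome 2, was the other well covered gene, with at least 188 counts in each library. Its counts were 234 and 215 in the CS libraries against 188 and 218 in the HDS libraries. These came to 16.0 and 12.4 CPM in CS plants and to 10.5 and 12.9 CPM in HDS plants, and the treatments overlapped, because HDS replicate 2 lay above CS replicate 2. The log2 fold change was -0.28 (standard error 0.24, P = 0.341 by edgeR's exact test). In the quasi-likelihood fit the 95% interval was 0.571-fold to 1.19-fold. The CS replicates differed from each other by 0.37 on the log2 scale, which is more than the difference between the treatments. Leaving out CS replicate 1 brought the log2 fold change to -0.08, whereas leaving out CS replicate 2 brought it to -0.47.

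Position linked most of the other genes. In the order of the table, Os01g0136100 and Os01g0136200 were neighbours with 0 genes between them, and on chromosome 3 Os03g0266300, Os03g0266900, Os03g0267000 and Os03g0267200 lay within a stretch in which 2, 0 and 1 other genes stood between one and the next. The remaining 4 genes stood apart, with 394 genes between Os01g0136200 and Os01g0184100 and 137 between Os03g0245800 and Os03g0266300. Whole expected counts were found in all 4 libraries for Os03g0266300, Os03g0266900, Os03g0267000, Os03g0245800, Os04g0445100 and Os02g0758000. The counts of the other 4 were not whole, the mark of reads that RSEM divides with another gene.

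Os01g0136100 and Os01g0136200 shared reads with each other. Os01g0136100 was given 3.63 and 1.08 expected counts in the CS libraries against 0 and 4.34 in the HDS libraries, and Os01g0136200 had 12.37 and 22.92 in the CS libraries against 12 and 7.66 in the HDS libraries. Added together, they gave 16 and 24 counts in CS plants against 12 and 12 in HDS plants, whole numbers in every library. The share given to Os01g0136200 ran from 63.8% in HDS replicate 2 to 100% in HDS replicate 1, so the level of either gene alone also depended on the division. Of the small HSP genes kept, Os01g0136200 alone had the lowest log2 fold change, -0.90 (standard error 0.37, P = 0.186 and adjusted P = 0.972 by edgeR's exact test), with 0.846 and 1.32 CPM in CS plants against 0.671 and 0.455 CPM in HDS plants. The pair summed had 1.24 ± 0.204 CPM (SD, n = 2) for CS against 0.692 ± 0.0298 CPM (SD, n = 2) for HDS. For the sum, both HDS libraries lay below both CS libraries, and the log2 fold change of -0.84 did not pass the test (P = 0.174 by edgeR's exact test). The 95% interval of the sum ran from 0.250-fold to 1.25-fold. In HDS plants a count of 12 has a 95% Poisson interval of 6.20 to 21.0, which covers counting error only, and that of the 24 counts in CS replicate 2 is 15.4 to 35.7, so these intervals overlap.

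**Figure D2:**
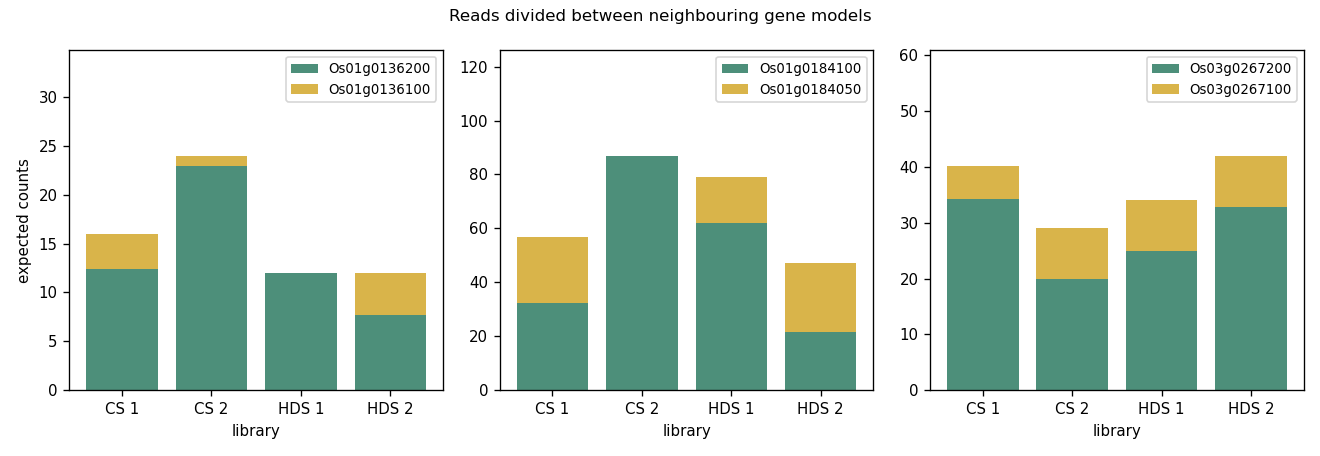
Expected counts (y axis, from 0) that RSEM divided between neighbouring gene models in each library (x axis), as stacked bars. The sums over Os01g0136100 and Os01g0136200 were 16, 24, 12 and 12 counts, and CS replicate 2 gave all of its 87 counts to Os01g0184100 where HDS replicate 2 gave it 45.6% of 47.

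Os01g0184100, also on chromosome 1, had the widest spread between replicates among the small HSP genes that were kept. Its expected counts were 32.38 and 87 in the CS libraries against 61.85 and 21.45 in the HDS libraries. In CPM this was 2.22 and 5.02 in CS plants against 3.46 and 1.27 in HDS plants, so that the higher library of each treatment lay above the lower library of the other. The replicates differed by 1.15 on the log2 scale in CS plants, and in HDS plants the log2 level of replicate 2 minus that of replicate 1 was -1.39. Both differences were larger than the log2 fold change of -0.61 between the treatments (standard error 0.90, P = 0.352 by edgeR's exact test). Part of this spread lay in the division of reads with Os01g0184050, the next gene model in the table, which was given 24.62 and 0 expected counts in the CS libraries against 17.15 and 25.55 in the HDS libraries. Summed, both gene models had 57 and 87 counts in CS plants against 79 and 47 in HDS plants, with 3.90 and 5.02 CPM against 4.42 and 2.79 CPM. The log2 fold change of the sum was -0.31, nearer to 0 than that of the gene alone (P = 0.482 by edgeR's exact test), with an interval of 0.458-fold to 1.42-fold. Leaving out a single library moved the value of Os01g0184100 itself between -1.53 and 0.09. Without CS replicate 1 it was -1.09 and met the study's criteria as lower, with an unadjusted P of 0.0475 in the exact test.

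On chromosome 3, Os03g0266900 was low and even. It had 18 and 16 counts in CS plants against 14 and 15 in HDS plants, or 1.23 and 0.922 CPM against 0.782 and 0.891 CPM. Both HDS libraries lay just below both CS libraries, and the log2 fold change of -0.36 (standard error 0.20) gave P = 0.583 by edgeR's exact test. The 95% interval ran from 0.345-fold to 1.76-fold. Os03g0267200 was given 34.23 and 19.85 expected counts in the CS libraries against 24.87 and 32.84 in the HDS libraries. This was 2.34 and 1.14 CPM in CS plants against 1.39 and 1.95 CPM in HDS plants, both HDS libraries lying between the CS libraries. Its log2 fold change of -0.04 (standard error 0.52, P = 0.964 by edgeR's exact test) had an interval from 0.427-fold to 2.20-fold, which holds both a lower and a higher level. The direction of this value was not fixed, as it was 0.034 with total counts in place of TMM and 0.0014 when the gene was summed with the neighbouring model Os03g0267100. The sum of these neighbours was whole in 3 of the 4 libraries, at 29, 34 and 42 counts, and was 40.22 in CS replicate 1.

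Taken as a single locus, Os03g0266300, Os03g0266900, Os03g0267000 and Os03g0267200 had 416 and 411 expected counts in CS plants against 363 and 353 in HDS plants. The level was 28.5 and 23.7 CPM in the CS libraries against 20.3 and 21.0 CPM in the HDS libraries, and both HDS libraries lay below both CS libraries. The log2 fold change of the sum was -0.34 (P = 0.132 by edgeR's exact test), and the 95% interval was 0.601-fold to 1.04-fold. Most of its reads came from Os03g0266300, whose own values are close to these.

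**Figure D3:**
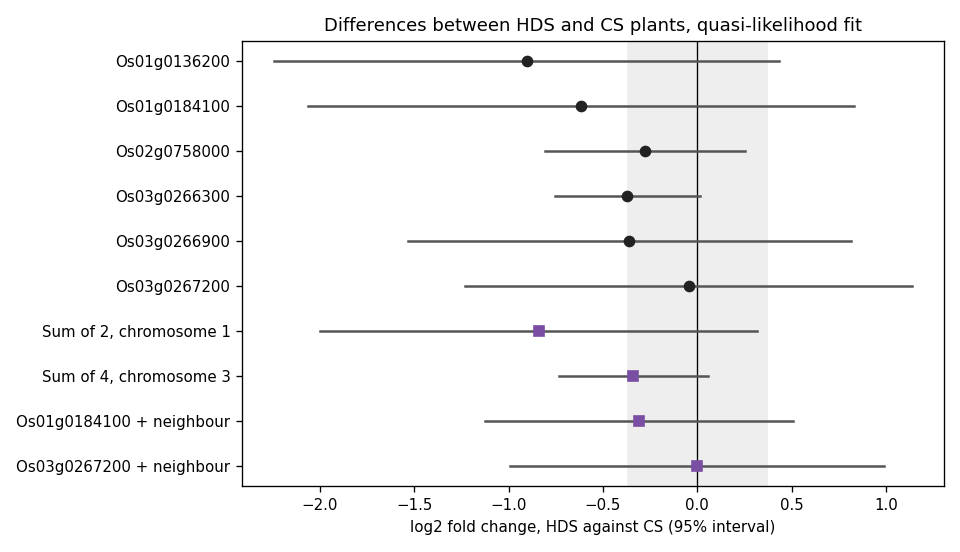
Log2 fold change of HDS against CS plants (x axis) for the 6 small HSP genes that were kept (circles) and for 4 sums of neighbouring gene models (squares), with 95% intervals of edgeR's quasi-likelihood fit and, in grey, the range within 0.37 of 0. All 6 circles lie below 0 and all 6 of their intervals include 0, with upper bounds between 1.01-fold and 2.20-fold.

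The remaining small HSP genes were at the limit of detection. Os03g0245800 had 0 counts in all 4 libraries, so that no fold change can be given. Os04g0445100, on chromosome 4, had 3 and 1 counts in CS plants against 0 and 0 in HDS plants, and Os03g0267000 had 1 and 0 in CS plants against 1 and 3 in HDS plants. Since no library had more than 3 counts for either gene, neither difference can be told from counting error and no fold change is given. Of the 10 small HSP genes, 4 were thus not kept by filterByExpr, these 3 and Os01g0136100.

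Single libraries set the size of several values. The log2 fold change of Os01g0136200 lay between -1.20 and -0.53 when each library in turn was left out, that of Os03g0266300 between -0.49 and -0.27, that of Os03g0266900 between -0.58 and -0.14 and that of Os02g0758000 between -0.47 and -0.08. These 4 genes kept a negative sign in each of these fits. Os01g0184100 and Os03g0267200 did not, with highest values of 0.09 without CS replicate 2 and 0.53 without CS replicate 1. The number of small HSP genes lower by the study's criteria was 1 without CS replicate 1 (Os01g0184100) and 1 without CS replicate 2 (Os03g0266300), and it was 0 without either HDS library. In none of these fits was a small HSP gene higher by the study's criteria.

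**Figure D4:**
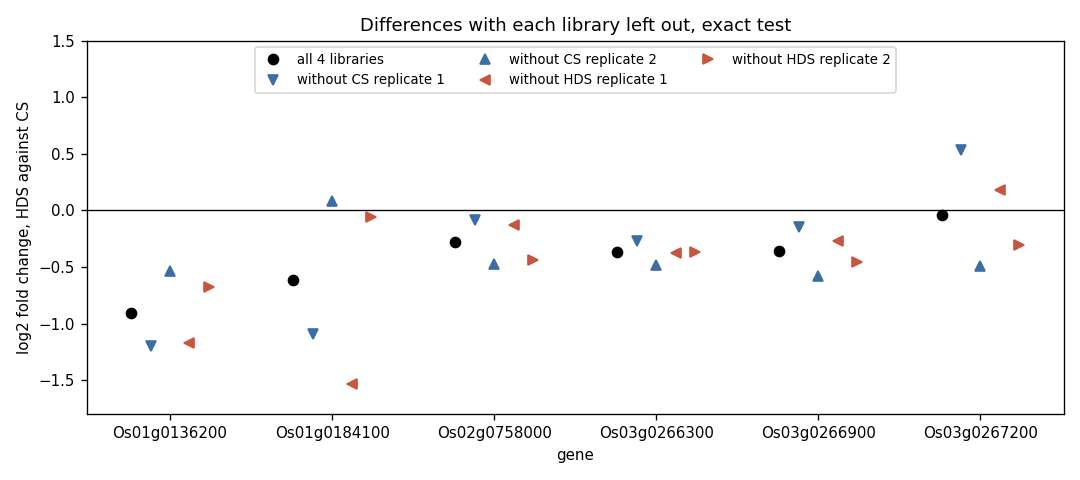
Log2 fold change of HDS against CS plants by edgeR's exactTest (y axis) for the 6 small HSP genes kept (x axis), with all 4 libraries and with each library left out. Os03g0266300 moves least, from -0.49 to -0.27, while Os01g0184100 spans -1.53 to 0.09 and Os03g0267200 spans -0.49 to 0.53.

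Other chaperones and heat stress transcription factors were examined as lists written from general knowledge, since the reference used here pairs none of these identifiers with a function. HSP101 and HSP70 take over proteins that small HSPs have bound, and some heat stress transcription factors switch on small HSP genes. Of 15 identifiers listed as HSP101, HSP90 or HSP70 chaperones, 2 were higher and 2 were lower in HDS leaves by the study's criteria. Over all genes tested, 4.18% were higher and 3.7% were lower. Of the chaperones, 0 passed the quasi-likelihood test after adjustment, where 0.248% of all genes kept were higher and 0.451% were lower. At an unadjusted P under 0.05 there were 4 chaperone genes by the exact test, 3 by the quasi-likelihood test and 3 by DESeq2, and DESeq2 left 1 after adjustment. The median log2 fold change was 0.01 over the 14 chaperone genes kept. Os03g0276500 in this list had 263 and 331 CPM in CS plants against 189 and 185 CPM in HDS plants. Both HDS libraries lay below both CS libraries. The log2 fold change of Os03g0276500 was -0.67 (standard error 0.17). Its adjusted P was 0.0303 by the exact test of edgeR but 0.210 by the quasi-likelihood test. Dropping CS replicate 1 gave a log2 fold change of -0.83, and dropping CS replicate 2 gave -0.51. Without HDS replicate 1 it was -0.68, and without HDS replicate 2 it was -0.65. Os03g0277300 gave 10 and 11 counts for CS against 34 and 34 for HDS, a log2 fold change of 1.56 (unadjusted P = 0.00464 and adjusted P = 0.144 by edgeR's exact test). Without HDS replicate 2 its unadjusted P was 0.0659. Os02g0115900 had 405 and 445 CPM in CS plants against 359 and 279 CPM in HDS plants, and its log2 fold change of -0.41 (P = 0.0430 and adjusted P = 0.586 by edgeR's exact test) was -0.24 with P = 0.436 without HDS replicate 2 and -0.37 with P = 0.0548 without CS replicate 2. Without HDS replicate 2 the count of chaperone genes that met the criteria was 1.

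Among 10 identifiers listed as heat stress transcription factors, 1 was lower and 0 were higher in HDS leaves by the study's criteria. Over all genes tested, 3.7% were lower and 4.18% were higher. In the list, the same gene was the only one past the adjusted test, where 0.451% of all genes kept were lower. This was Os03g0161900 on chromosome 3, which gave 1369 and 1201 counts for CS against 484 and 493 for HDS. It stood at 93.7 and 69.2 CPM in CS plants and at 27.1 and 29.3 CPM in HDS plants, so that the treatments were well apart. The log2 fold change was -1.53 (standard error 0.23, 95% interval -1.98 to -1.09), with an adjusted P of 0.0321 in the quasi-likelihood test of edgeR. Without HDS replicate 1 the adjusted P was 0.129 and without HDS replicate 2 it was 0.0729, while the log2 fold change stayed between -1.75 and -1.30 whichever library was left out. The median log2 fold change over the 9 factor genes kept was -0.06. Whether the small HSP genes differed from these lists was not tested.

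**Figure D5:**
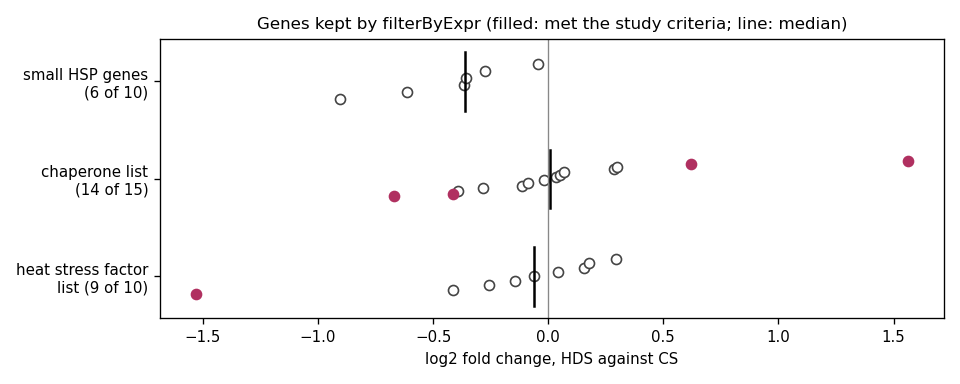
Log2 fold change of HDS against CS plants by edgeR's exactTest (x axis) for the genes kept by filterByExpr in each list, with filled points for genes that met the study's criteria and lines at the medians. The small HSP genes hold 0 filled points with a median of -0.36, the chaperone list 4 with a median of 0.01, and the heat stress factor list 1, at -1.53.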

How the data were processed

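Leaf RNA was sequenced from 2 CS and 2 HDS plants. The submitters' processing notes list FastQC 0.11.7, Trimmomatic, Bowtie2, RSEM and edgeR 3.26.3 with the build IRGSP-1.0. The authors deposited expected counts per gene from RSEM, which splits reads that match more than one gene, without normalization. The study's methods and the sample labels name different library kits, both of which keep the strand. All 4 columns were assigned to samples by their labels, and 0 rows named no gene.

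The expected counts were rounded, and the tests were run with edgeR 4.0.16 and, as an alternative, DESeq2 1.42.0 under R 4.3.3. The exact test was run on the 29698 genes with at least 1 count and the quasi-likelihood test on the 22184 genes kept by filterByExpr, both after TMM normalization and on all 4 libraries, and the adjusted P-values are Benjamini-Hochberg values over all genes of that test. Fold changes with P and adjusted P come from the exact test unless the quasi-likelihood test is named. Intervals (95%) were taken from the quasi-likelihood F statistic. Standard errors come from log2 CPM with a prior count of 2 between the 2 replicates of each treatment. A count was called whole within 0.005. P-values set the difference between treatments against the spread between the plants sampled. The temperature was given to the parent plants, and the study does not say which parents or seed lots the sampled plants came from. Whether the P-values also cover the spread between parents or seed lots is therefore not known. The test scripts were tested on simulated data with known changes. These changes were put only in well counted genes and were larger than those fitted to the small HSP genes kept. The simulation therefore does not show how often small changes in genes with few counts would be found.

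As alternatives, TMM was replaced by upper quartile normalization, by the size factors of DESeq2 and by total counts, and others were a replicate block, swapped filters, DESeq2, adjusted P-values in the exact test, a prior count of 2, neighbouring genes summed and each library left out, where the lone library of a treatment is assumed to vary like the other treatment. Sums with the neighbours Os01g0184050 and Os03g0267100 were added after the data had been seen. The genes, lists and tests were chosen with earlier results of these data known. The genes named are the 10 small HSP genes and, in each other list, at most the 3 genes with the smallest exact-test P among those that met the study's criteria. Other small HSP genes and sequences were not analysed here, because the reference table pairs 0 of the identifiers used here with a name.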

Additional observations from a re-analysis of the deposited data

How the results depend on the processing

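Among the alternatives with all 4 libraries, 0 small HSP genes met either threshold, and the median over the 6 genes kept stayed between -0.38 and -0.29. The sign of Os03g0267200 turned from -0.04 to 0.034 with total counts and to 0.0014 when summed with its neighbour. With each library left out in turn its log2 fold change lay between -0.49 and 0.53, and that of Os01g0184100 between -1.53 and 0.087, that of Os03g0266300 between -0.49 and -0.27, and the number of small HSP genes lower by the study's criteria between 0 and 1.

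Over all genes, 2340 met the study's criteria, 707 with adjusted P-values and between 1132 (without HDS replicate 1) and 5430 (without CS replicate 2) with a library left out. The quasi-likelihood count of 155 became 419 with the filters swapped, 525 with DESeq2 and between 64 and 2506 without the same libraries. With the replicate block it was 532, and the block changed no call of a small HSP gene. It took the chaperone count by the study's criteria from 4 to 3, and the unadjusted P of Os02g0115900 was 0.0940 in edgeR's blocked quasi-likelihood fit. The deviations of same-numbered libraries had a correlation of 0.00 across genes. With 2 replicates per treatment, this value cannot decide whether the numbers pair the plants. The cause of these moves was not tested.

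In the chaperone list, the count of 4 by the study's criteria was 1 with adjusted P-values and between 1 and 4 with a library left out, and the adjusted count of 0 was 1 with DESeq2 and between 0 and 2 with a library left out. In the heat stress factor list these counts, 1 and 1, lay between 1 and 2 and between 0 and 1 with a library left out. The 4 small HSP genes kept with at most 87 counts in any library have 95% intervals that reach from 0.427-fold or lower to 1.35-fold or higher, and depth and the spread between 2 replicates cannot be told apart as limits.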
